A study of Mus musculus and Rattus norvegicus with 28 samples.

Results

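The genes described here were 7 zinc-dependent histone deacetylases (HDACs), Hdac1, Hdac2, Hdac3 and Hdac8 of class I, Hdac6 and Hdac10 of class IIb and Hdac11 of class IV. The rule that picked them used gene symbols and no measured value, among 55450 mouse and 32623 rat genes, but earlier results of these data were known at the time. All 7 were listed in both species. Mouse cardiomyocytes were isolated from the left ventricles of wild-type C57BL/6 animals of both sexes at embryonic day 18.5 (E18.5) and postnatal days 1, 3 and 7 (P1, P3 and P7), with 2 RNA-seq and 2 ATAC-seq libraries per time point. Rat ventricular cardiomyocytes from Sprague Dawley pups at P1 (NRVCs) were plated and then given 100 nM trichostatin A (TSA) or the solvent DMSO, with 3 RNA-seq libraries per group. In both species cells were released with trypsin and collagenase, and cells that attached early to plastic were discarded. The comparisons asked how expression of the HDACs and accessibility at their promoters differed across birth, and whether an HDAC inhibitor was accompanied by other levels of the genes that encode its targets.

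HDACs remove acetyl groups from lysines of histones and of other proteins, which goes with compact chromatin and low transcription at many promoters. HDAC1 and HDAC2 form the catalytic core of the SIN3, NuRD, CoREST and MiDAC co-repressor complexes, HDAC3 works in the NCoR complexes, and HDAC8 acts outside these assemblies, on cohesin among other substrates. HDAC6 is a mostly cytoplasmic tubulin deacetylase, HDAC10 a polyamine deacetylase, and HDAC11 removes long fatty acyl groups from lysines. TSA chelates the zinc in the catalytic pocket of these enzymes, while the class IIa members (HDAC4, HDAC5, HDAC7 and HDAC9) have little catalytic activity of their own and repress MEF2 targets in heart muscle by binding.

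In the mouse build mm10, Hdac1 lay on chr4:129516104-129542713 on the minus strand, Hdac2 on chr10:36974544-37001889 on the plus strand, and Hdac11 on chr6:91156665-91174692 on the plus strand. Hdac6 (chrX:7930120-7947889) and Hdac8 (chrX:102284639-102505359) shared chromosome X and the minus strand, and Hdac10 was on chr15:89123307-89128700, also on the minus strand. Entries of the RefSeq promoter table (build GRCm38.p6, 250 bases before to 50 after a start) were used for Hdac2, Hdac6, Hdac8 and Hdac11. The following stretches before the first annotated start are shown for Hdac2, Hdac6 and Hdac11 because a promoter peak was listed for these genes in each of the 8 ATAC-seq libraries, while their RNA levels took different courses. The Hdac11 stretch itself overlapped a peak in 7 of the 8 libraries, since in E18.5 replicate 1 the peak began just past its end. Capitals mark GGGCGG (the GC box bound by SP factors) or CCAAT (bound by NF-Y) on either strand, and each run is written 5′ to 3′ on the strand of its gene.
Hdac2 (chr10:36974294-36974543, plus strand): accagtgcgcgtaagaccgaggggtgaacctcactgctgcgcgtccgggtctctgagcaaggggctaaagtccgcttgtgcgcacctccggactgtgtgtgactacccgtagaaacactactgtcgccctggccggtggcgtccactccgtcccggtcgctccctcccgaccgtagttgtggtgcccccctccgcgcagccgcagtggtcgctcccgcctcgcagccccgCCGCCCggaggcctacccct
Hdac6 (chrX:7947890-7948139, minus strand): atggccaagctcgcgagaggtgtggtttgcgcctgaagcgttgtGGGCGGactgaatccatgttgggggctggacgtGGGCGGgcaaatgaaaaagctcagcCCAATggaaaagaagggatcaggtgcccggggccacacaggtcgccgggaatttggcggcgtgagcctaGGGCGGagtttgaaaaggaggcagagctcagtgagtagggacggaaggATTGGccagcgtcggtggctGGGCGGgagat
Hdac11 (chr6:91156565-91156664, plus strand): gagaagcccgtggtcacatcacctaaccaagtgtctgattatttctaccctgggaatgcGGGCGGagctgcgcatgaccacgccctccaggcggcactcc
Of 5 motifs searched on both strands of the whole 300-base windows (GGGCGG, then CCAAT, then TATAAA, then CACGTG and last TGACTCA), Hdac6 held 5 copies of GGGCGG and 2 of CCAAT, Hdac11 held 1 of each, and Hdac2 held a single GGGCGG. The Hdac8 window held 2 copies of CCAAT and 1 of TATAAA and no GGGCGG. Of 32851 RefSeq windows of this length, 35.7% held GGGCGG, 37.4% CCAAT, 13.6% TATAAA, 7.15% CACGTG and 5.20% TGACTCA. The windows of Hdac2, Hdac11 and Hdac6 were rich in CG dinucleotides, with 36, 22 and 20 copies, against 6 in that of Hdac8 and a median of 7 over all windows.

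Depth was similar across the libraries, with an estimated 29.3M to 37.5M aligned reads (M, mega) in mouse and 28.2M to 38.5M in rat. The mouse libraries differed strongly in cell type markers between E18.5 and P7, and these values apply beside each mouse result below. All 10 cardiomyocyte markers were lower at P7, with a summed level of 22551 and 29329 FPKM (fragments per kilobase of transcript, scaled to library depth) at E18.5 and 1789 and 790.3 at P7, and none was at 0. All 8 fibroblast markers were higher, from sums of 442 and 432 to 2907 and 3628, and all 7 matched erythroid markers were lower, from 29046 and 35395 to 11.04 and 11.99, with Slc4a1, the anion exchanger of red cells, at 0 in both P7 libraries. Of the smooth muscle and pericyte markers, 5 of 6 were higher and 1 lower (sums of 384 and 512 at E18.5 against 1655 and 1865 at P7), of the macrophage markers 4 of 6 tested were higher and 2 lower (46.4 and 45.3 against 129.6 and 108.8), and of the endothelial markers 1 of 6 was higher and 1 lower (304 and 169 against 277 and 235). The part of these markers in the HDAC results was not tested, and in bulk RNA fewer cells of a type cannot be told apart from less RNA per cell. Among the rat libraries, replicate 3 of each group stood apart, with smooth muscle and pericyte sums of 2180 in DMSO and 1403 in TSA against 620 to 936 in the other 4 libraries. Marker levels also moved with TSA. Macrophage sums were 993, 1009 and 480 FPKM in DMSO and 532, 453 and 399.8 in TSA, and fibroblast sums 6383, 6930 and 6692 against 5965, 5658 and 3565, both lower in TSA in each pair of equal number. Cardiomyocyte sums were 11321, 12051 and 14406 in DMSO and 11844, 10657 and 21969 in TSA, erythroid sums 5.01 to 31.5 and 38.7 to 66.0, and endothelial sums 11.5 to 17.2 and 13.9 to 16.9. Of the rat markers tested 1 passed, the pericyte gene Rgs5, higher in TSA (1.80 ± 0.18 SE, adjusted p = 0.0069). The summed level of its list, smooth muscle and pericyte, was lower in TSA in each pair of equal number. The sums were 936, 853 and 2180 FPKM in DMSO against 623, 620 and 1403 in TSA. The median log2 fold change of that list was -0.17. The part of these markers in the rat HDAC values was not tested.

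Between E18.5 and P7, mean Hdac1 rose 2.54-fold, Hdac8 and Hdac3 rose, Hdac6 fell and Hdac11 fell most, while Hdac2 and Hdac10 did not pass the test. At an adjusted p under 0.05 (limma on log2(FPKM + 1) over 13979 genes), 5 of 7 HDACs differed from E18.5 at P7, beside 55.2% of all genes tested, so the count is no result about the HDACs as a group. Of these, 3 were higher (32.6% of all genes) and 2 lower (22.6%). The same 5 genes passed at P3 (48.9% of all genes) and at P1 (41.3%). By the stricter rule of the study, which also asks for over 2-fold, Hdac1 and Hdac11 were called at P7 and at P3 and only Hdac11 at P1, beside 27.7%, 21.9% and 16.2% of all genes. The added 1 in log2(FPKM + 1) bears on this rule, since it understates the change of low genes. With a pseudocount of 0.1 Hdac8 also exceeded 2-fold at P3 (log2 fold change 1.16) and P7 (1.11), and Hdac6 at P7 (-1.04). At P1, limma-voom put Hdac1 (1.04) and Hdac8 (1.02) past it, as did TPM (1.21 and 1.02).

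Hdac1, which encodes a catalytic subunit of SIN3 and NuRD, measured 29.7 and 35.0 FPKM in the E18.5 libraries, then 67.6 and 60.0 at P1, 77.8 and 75.6 at P3, with 79.6 and 84.8 at P7. Every postnatal library was above both E18.5 libraries, and the largest step was the first. The log2 fold change against E18.5 was 0.96 ± 0.13 (SE, n = 2 per group) at P1 with an adjusted p of 0.00094, 1.22 ± 0.13 at P3 with 0.00022, and 1.32 ± 0.13 at P7 with 8.9e-05. Hdac2, its close paralogue, stayed between 45.7 and 50.4 FPKM in all 8 libraries, with 45.7 and 46.5 at E18.5, then 46.5 and 46.4 at P1, 48.7 and 45.8 at P3, with 49.4 and 50.4 at P7. Its fold change at P7 was 0.11 on the log2 scale with a 95% interval of -0.14 to 0.36 and an adjusted p of 0.41, which leaves room for a modest change in either direction. The level of Hdac1 relative to Hdac2, a ratio chosen after the values were seen and not tested, was 0.649 and 0.753 in the E18.5 libraries, then 1.45 and 1.29 at P1, 1.598 and 1.651 at P3, with 1.61 and 1.68 at P7. Hdac1 was thus below Hdac2 in both fetal libraries and above it in all 6 postnatal libraries.

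Hdac3, the enzyme of the NCoR complexes, measured 20.2 and 27.7 FPKM at E18.5, then 35.8 and 31.9 at P1, 33.5 and 37.9 at P3, with 34.2 and 34.9 at P7. The groups did not overlap, but the E18.5 libraries lay far apart. Its log2 fold change was 0.49 ± 0.16 (SE) at P1, 0.57 ± 0.16 at P3 and 0.53 ± 0.16 at P7, with adjusted p of 0.042, 0.021 and 0.026. With only the 2 time points in the fit the calls at P1 and P7 were lost, and without an expression filter those at P1, P3 and P7. These calls were lost when E18.5 replicate 1 was left out (0.28, 0.35 and 0.31, with adjusted p of 0.16, 0.078 and 0.10) and with size-factor scaling (0.30, 0.36 and 0.35, with 0.21, 0.13 and 0.13). They were also lost at P1 without any one library other than E18.5 replicate 2 (adjusted p from 0.062 to 0.18), at P3 without P3 replicate 2 (0.12), and at P7 without P7 replicate 1 (0.084) or 2 (0.10). Hdac8, the least abundant class I member, measured 1.76 and 1.76 FPKM at E18.5, then 3.20 and 3.80 at P1, 4.36 and 3.75 at P3, with 4.03 and 3.81 at P7. Both fetal libraries were below all postnatal ones, and the log2 fold change at P7 was 0.83 ± 0.16 (SE) with an adjusted p of 0.0027. These levels rested on an estimated 101 reads in E18.5 replicate 1, few more in replicate 2, and 224 to 312 reads afterwards.

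Of the class IIb genes, Hdac6, the tubulin deacetylase, measured 10.4 and 10.8 FPKM at E18.5, then 6.36 and 7.06 at P1, 5.72 and 6.79 at P3, with 6.06 and 4.32 at P7. Every postnatal library was below both E18.5 libraries, with log2 fold changes of -0.59 ± 0.18 (SE), -0.68 ± 0.18 and -0.92 ± 0.18 at P1, P3 and P7 and adjusted p of 0.031, 0.014 and 0.0030. The call at P7 was kept under every alternative run, whereas those at P1 and P3 were lost on the TPM scale (transcript shares of a fixed total), with adjusted p of 0.13 and 0.067. Without an expression filter, or with only the 2 time points in the fit, the call at P1 was lost. At P1 the call was also lost without either E18.5 or either P1 library (adjusted p from 0.064 to 0.13), and at P3 without E18.5 replicate 2 (0.056) or P3 replicate 1 (0.095). Hdac10, the polyamine deacetylase, measured 2.60 and 3.87 FPKM at E18.5, then 3.98 and 5.81 at P1, 3.34 and 4.96 at P3, with 3.53 and 3.62 at P7. Replicate 2 was the higher library at each time point, and the E18.5 range overlapped that of P3 and held both P7 values. The interval of its log2 fold change at P7 ran from -0.43 to 0.68 (adjusted p = 0.67).

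Hdac11, the single class IV enzyme, measured 8.05 and 11.3 FPKM at E18.5, then 2.41 and 4.16 at P1, 1.45 and 1.63 at P3, with 1.23 and 1.23 at P7. The levels at successive time points did not overlap. The log2 fold change against E18.5 was -1.33 ± 0.24 (SE) at P1, -2.05 ± 0.24 at P3 and -2.24 ± 0.24 at P7, with adjusted p of 0.0034, 0.00034 and 0.00013, and the P7 mean was 0.127 times that at E18.5. At P7 the level rested on an estimated 101 and 105 reads. Exons of the antisense genes Gm14573 and Gm44002 covered 2.49% and 15.4% of the exon bases of Hdac11, and with a kit that does not mark strand their reads cannot be told apart from those of Hdac11.

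**Figure D1:**
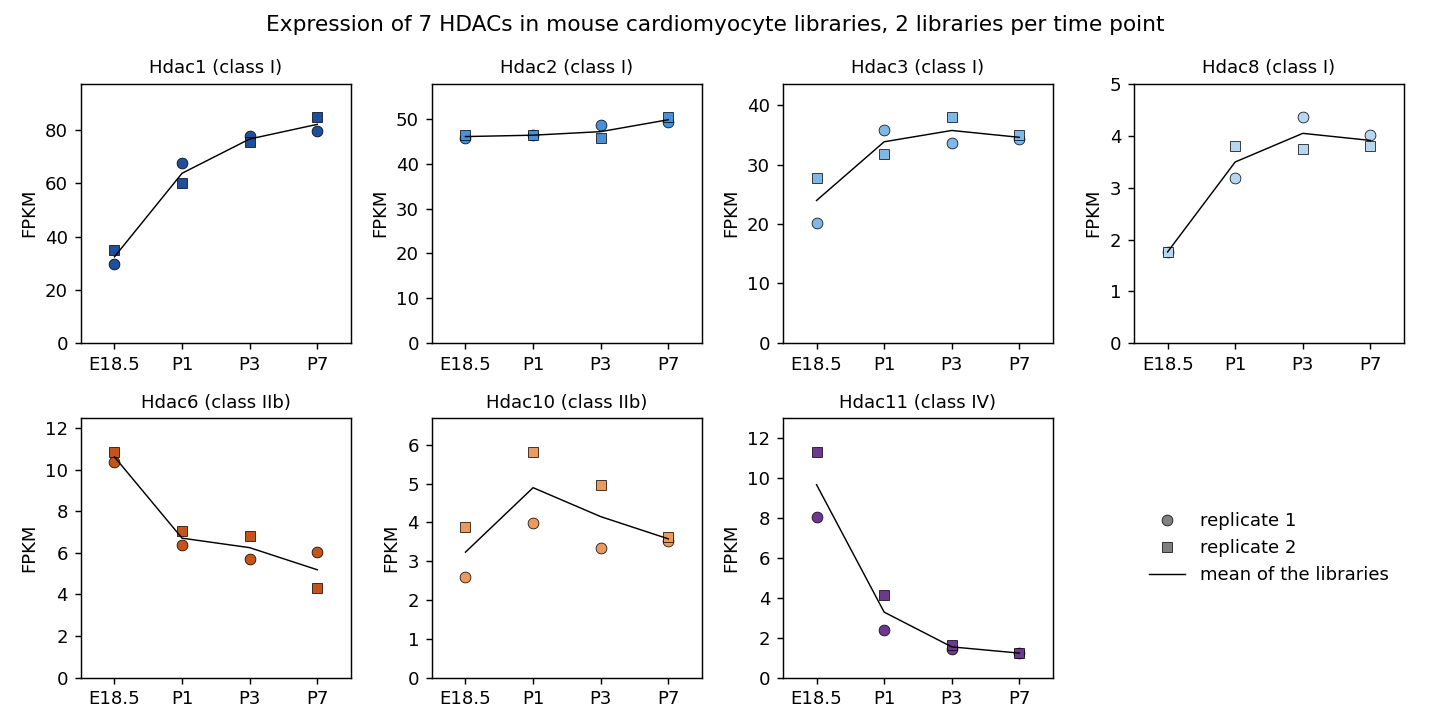
Level of each HDAC in FPKM (vertical axes, each from 0) in the mouse cardiomyocyte libraries, ordered by age from E18.5 to P7; points are single libraries (circle, replicate 1; square, replicate 2) and black lines join the means of 2 libraries. Hdac1 climbs from 29.7 and 35.0 to 79.6 and 84.8 FPKM and Hdac11 drops from 8.05 and 11.3 to 1.23, while Hdac2 stays between 45.7 and 50.4.

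After birth Hdac11 was the HDAC that still passed, lower at P7 than at P1. By limma none of the 7 passed between P3 and P1, beside 0.0143% of all genes (2 in number), and none between P7 and P3, beside 5.13%, and limma-voom on estimated reads also gave 0 in both. At an unadjusted limma p under 0.05 there was 1 HDAC for P3 against P1, Hdac11 at -0.72 ± 0.24 (SE) on the log2 scale, and 0 for P7 against P3. With 2 libraries per time point these comparisons leave room for changes, as the 95% interval of Hdac11 for P3 against P1 (-1.27 to -0.18) shows. Between P7 and P1, 1 of 7 passed beside 18.2% of all genes. This was Hdac11, at -0.91 ± 0.24 (SE) with an adjusted p of 0.032, a call that was lost without P1 replicate 2 (-0.61, adjusted p = 0.18) and without either P7 or either P3 library. Hdac1 measured 0.36 ± 0.13 (SE) in that comparison with an adjusted p of 0.094.

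The order of the levels changed at birth. At E18.5 the order by mean FPKM was Hdac2 (46.1), Hdac1 (32.4), Hdac3 (24.0), Hdac6 (10.6), Hdac11 (9.67), Hdac10 (3.23) and Hdac8 (1.76), and of these neighbours only Hdac6 and Hdac11 overlapped between libraries. At P7 it was Hdac1 (82.2), Hdac2 (49.9), Hdac3 (34.6), Hdac6 (5.19), Hdac8 (3.92), Hdac10 (3.58) and Hdac11 (1.23), with no overlap between neighbours. Hdac11 moved from above 57.5% of the genes tested at E18.5 to above 12.5% at P7, and Hdac1 from above 84.7% to above 93.7%. Class I genes made up 82.2% and 81.0% of the 7 genes' summed FPKM in the E18.5 libraries and 89.3% to 94.99% in the postnatal libraries. The share of Hdac1 alone went from 25.1% and 25.6% to 44.7% and 46.3% at P7, and that of Hdac2 from 38.6% and 34.0% to 27.7% and 27.5%.

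**Figure D2:**
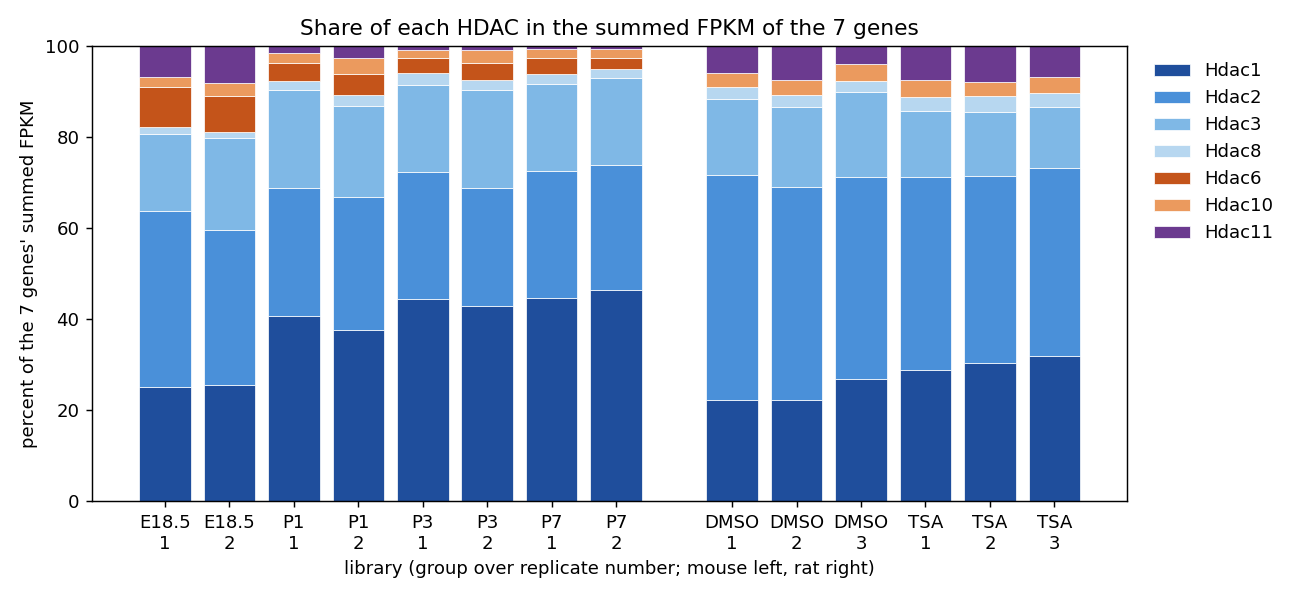
Share of each HDAC (percent of the 7 genes' summed FPKM, stacked to 100) in each mouse library on the left and each rat library on the right. The rat shares take Hdac6 as listed, at or near 0. Blue shades are class I, orange class IIb and purple class IV; the class I share is 82.2% and 81.0% at E18.5 and 93.9% and 94.99% at P7.

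FPKM of the average gene also moved across birth, and the changes above should be read against it. The median log2 fold change of all genes tested was 0.15, 0.16 and 0.14 at P1, P3 and P7 against E18.5, it was -0.014, -0.017 and -0.0064 after scaling by size factors, and it was 0.38, 0.41 and 0.40 in TPM. Of the genes that passed at P7, 59.1% were higher in FPKM, 48.7% with size factors and 71.8% in TPM. The direction for Hdac1, Hdac3, Hdac8, Hdac6 and Hdac11 against E18.5 was the same on the 3 scales. The direction for Hdac2 was not, with a log2 fold change at P7 of 0.11 in FPKM, -0.070 with size factors (adjusted p = 0.63) and 0.37 in TPM (adjusted p = 0.018), and Hdac10 at P7 also turned to -0.015 with size factors.

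**Figure D3:**
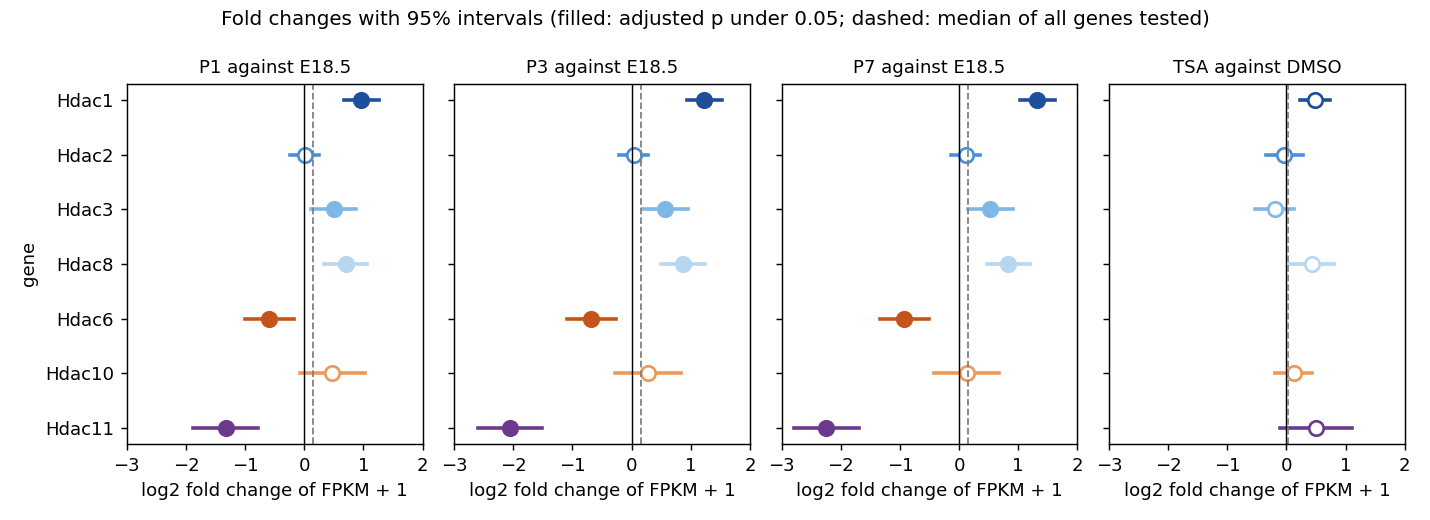
Log2 fold change of FPKM + 1 (horizontal axes) with its 95% interval for each HDAC (rows) in 3 mouse comparisons and in the rat comparison; filled circles passed an adjusted p of 0.05, open circles did not, and the dashed line is the median of all genes tested. At P7 Hdac1 lies at 1.32 and Hdac11 at -2.24, Hdac6 is at -0.92, and no circle is filled in the TSA panel, where Hdac6 was not tested.

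A single transcript carried most of the level of 5 HDACs in all 8 mouse libraries, with 87.7% to 96.2% of the FPKM of Hdac1, 82.0% to 98.6% of Hdac8, 83.5% to 97.1% of Hdac11, 74.4% to 86.3% of Hdac2 and 63.2% to 86.8% of Hdac3. For Hdac6 the transcript estimates switched between libraries of the same age. The transcript of 4069 bases held 73.6% to 89.96% in 6 libraries but 0.632% in P1 replicate 2 and 13.1% in P3 replicate 2, where transcripts of 5037 and 4142 bases were given 71.9% and 67.4%. The gene sums of those libraries, 7.06 and 6.79 FPKM, did not stand apart from their partners at 6.36 and 5.72, so only the sum over transcripts was used here. For Hdac10 no transcript exceeded 40.8% in any library.

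The genes whose log2 levels ran most closely with a member over the 8 mouse libraries are given as a description, since all points share the same time course. For Hdac1 they were Melk, a mitotic kinase (Pearson r = 0.999), and Nans, a sialic acid synthase (0.998), and 2415 genes exceeded 0.9. For Hdac11 they were Mybpc2 (0.997) and Myl9 (0.995), both of the contractile apparatus, and 1151 genes exceeded 0.9. The closest genes to Hdac8 were Spp1 (0.993) and the lysosomal protease Ctsb (0.992), to Hdac6 the acyl-CoA synthetase Acsl1 (0.992) and Surf1, an assembly factor of cytochrome oxidase (0.988), and to Hdac3 Zfp956 (0.981) and Thy1 (0.980).

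Of the 4 class IIa genes, which TSA hardly inhibits, 2 passed at P7, both lower, beside 55.2% of all genes in either direction. Hdac5 fell from 46.9 and 55.6 FPKM at E18.5 to 18.5 and 17.2 at P7 (log2 fold change -1.47 ± 0.15 SE, adjusted p = 0.00012) and Hdac9 from 3.99 and 4.03 to 0.141 and 0.199 (-2.10 ± 0.29, adjusted p = 0.00049), while Hdac4 (0.34 ± 0.20) and Hdac7 (0.69 ± 0.28) did not pass.

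Among the co-repressor partners of HDAC1 and HDAC2, 5 of 10 tested NuRD genes were higher at P7 and none was lower, beside 32.6% higher and 22.6% lower of all genes, which is the background for each list below, with a median log2 fold change of 0.40 beside 0.14 over all genes. The largest were Mta1, which recruits the deacetylase, at 44.6 against 21.0 FPKM (1.05 ± 0.11 SE, adjusted p = 0.00016) and Cdk2ap1 at 49.2 against 27.2 (0.81 ± 0.21, 0.013). Of the SIN3 genes 2 of 15 were higher and 2 lower (median 0.16). Sap18 (43.8 against 26.7 FPKM) and Brms1l (12.5 against 7.68) were the higher pair and Sap30 (17.4 against 39.6) and Arid4a (3.32 against 5.80) the lower pair. Of 9 CoREST genes Phf21a was higher (9.72 against 4.82) and Hmg20b (25.1 against 52.9) and Rcor3 (5.63 against 9.16) were lower, with a median of -0.28. Of 3 MiDAC genes only Trerf1 passed, at 3.62 against 1.20 FPKM (1.08 ± 0.19, adjusted p = 0.0020).

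In the complexes of HDAC3, 3 of 5 genes were higher at P7 and 1 was lower (32.6% and 22.6% of all genes), with a median log2 fold change of 0.43. Tbl1xr1 measured 6.68 against 1.99 FPKM (1.33 ± 0.25 SE, adjusted p = 0.0025) and Gps2 20.1 against 28.9 (-0.50 ± 0.13, 0.011). Of the opposing acetyltransferases 2 of 10 were higher, Kat2a (22.1 against 13.9 FPKM) and Hat1 (48.8 against 36.7), and 1 was lower, Kat2b (9.45 against 14.4), with a median of -0.24. Of the BET proteins, which read acetylated histones, Brd2 was lower (49.4 against 105 FPKM, -1.07 ± 0.13, adjusted p = 0.00028) and the other two did not pass. Of the 7 NAD-dependent sirtuins 1 was higher, Sirt2 (40.4 against 24.8 FPKM), and 3 were lower. Sirt3, the mitochondrial deacetylase, went from 31.3 to 3.60 FPKM (-2.82 ± 0.20, adjusted p = 2.6e-05) and Sirt1 from 21.7 to 4.35 (-2.08 ± 0.14, 2.5e-05).

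ATAC-seq asked whether the promoters of the HDACs were open. A promoter peak was a peak of the deposited list for a library that came within 2.5 kb of an annotated start. In both libraries of a time point, 5 of 7 HDACs had one at E18.5 (56.7% of all genes tested in RNA-seq had), 4 at P1 (41.3%), 7 at P3 (87.5%) and 6 at P7 (83.2%). These counts rose and fell with the background and with the length of the lists, which for replicates 1 and 2 held 13149 and 14910 peaks (E18.5), 29281 and 19753 (P1), 95257 and 52040 (P3), and 49113 and 35898 (P7). With each list cut to its 13149 highest scores the counts were 5, 4, 4 and 3, beside 54.1%, 31.5%, 37.2% and 45.2% of all genes.

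Hdac1, Hdac2, Hdac6 and Hdac11 had a promoter peak in every library, as had 36.6% of all genes. At Hdac1 the highest peak had its summit 46 to 152 bases before a start, and its -log10 q was 10.9 and 14.3 at E18.5, then 9.49 and 5.52 at P1, 28.6 and 44.5 at P3, with 28.6 and 21.9 at P7. At Hdac11 it lay within 60 bases of a start, with 6.05 and 9.90 at E18.5, then 13.0 and 4.91 at P1, 39.5 and 29.7 at P3, with 18.3 and 20.3 at P7. Fold enrichment over the local background was 5.53 and 7.54 at E18.5 and 6.74 and 7.25 at P7 for Hdac11, and 7.74 and 9.58 against 9.33 and 7.94 for Hdac1, so the RNA level went down at Hdac11 and up at Hdac1 while the enrichment values of the 2 ages overlapped at both. At Hdac6, whose RNA fell, the -log10 q was 7.595 and 8.62 at E18.5 and 9.10 and 18.5 at P7, and at Hdac2, whose level was flat, 8.67 and 5.67 against 9.98 and 16.7. Their fold enrichment overlapped between the ages, with 6.33 and 7.18 against 5.59 and 7.70 for Hdac6 and 6.32 and 6.01 against 5.33 and 6.70 for Hdac2. With lists of equal length neither had a promoter peak in both P7 libraries. The -log10 q values are as listed and were not scaled between libraries.

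The other 3 promoters lacked a peak in some libraries. Hdac10 had one in both E18.5 libraries (-log10 q of 6.47 and 8.66), none in either P1 library, and one again in both P3 (34.4 and 26.3) and both P7 libraries (26.5 and 11.8); 3.81% of all genes had a promoter peak in both E18.5 and in neither P1 library. Hdac8 had one only in the P3 libraries, at -log10 q of 4.44 and 6.15 and at percentiles of 20.2 and 31.9 of the scores in those lists. Of all genes, 15.6% had one in both P3 and in neither E18.5 library, a looser pattern that does not ask about P1 and P7. Hdac8 RNA was measured in all 8 RNA-seq libraries, which are separate samples, including those of E18.5, P1 and P7, the ages with no peak listed. Hdac3 lacked a peak in replicate 2 of E18.5 and of P1 and had one elsewhere, with -log10 q of 4.69 and 3.23 in the other libraries of those ages, 18.5 and 19.3 at P3, with 7.08 and 8.92 at P7. The start of Rell2, on the opposite strand, lies 63 bases from that of Hdac3, so a peak there cannot be assigned to either gene, and Rell2 was not expressed highly enough to be tested. A second peak inside Hdac1, near an internal start, was listed in both P3 libraries and in P7 replicate 1 (-log10 q of 6.67, 8.09 and 5.23) and in none of the E18.5 libraries.

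**Figure D4:**
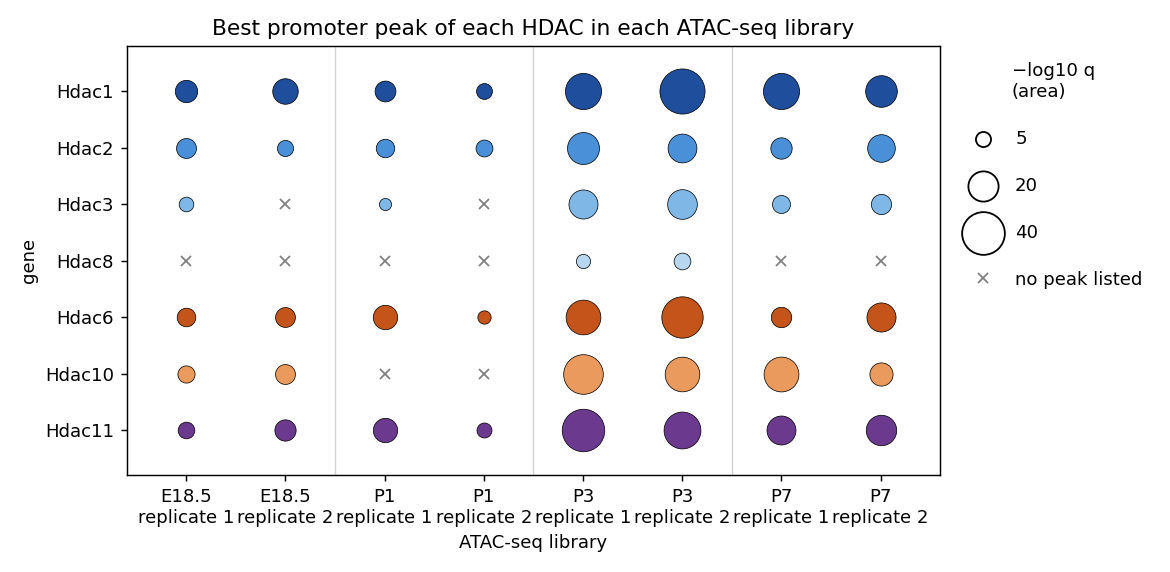
Highest-scoring promoter peak of each HDAC (rows) in each ATAC-seq library (columns); circle area is proportional to the -log10 q of the deposited peak and a cross marks a library with no promoter peak listed. Circles are largest at P3, where Hdac1 reaches 44.5 and Hdac11 39.5, crosses fill 6 of the 8 columns for Hdac8, and both P1 columns are crossed for Hdac10. The P3 lists were also the longest (95257 and 52040 peaks), and -log10 q was not scaled between libraries, so circle areas do not rank the ages by openness.

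In NRVCs, none of the 6 HDACs tested passed between TSA and DMSO at an adjusted p under 0.05 (limma over 13625 genes), beside 3.78% of all genes, and 2 of them, Hdac1 and Hdac8, were below an unadjusted p of 0.05. On estimated reads limma-voom passed 0 of them. Hdac1 measured 34.6, 34.0 and 38.4 FPKM in DMSO and 52.6, 53.0 and 45.5 in TSA. All TSA libraries were above all DMSO libraries, with a log2 fold change of 0.48 ± 0.10 (SE, n = 3 per group, 95% interval 0.24 to 0.73) and an adjusted p of 0.055, and the exact permutation test gave p = 0.1, the smallest that 20 splits allow. Hdac8 measured 4.12, 3.98 and 3.25 FPKM in DMSO and 5.87, 6.16 and 4.43 in TSA, again without overlap (0.43 ± 0.16, 95% interval 0.059 to 0.81, adjusted p = 0.19, exact p = 0.1). In an alternative chosen after seeing the data, replicate 3 of both groups, the libraries that stood apart, was left out. Both genes then passed, Hdac1 at 0.61 ± 0.055 (adjusted p = 0.0042) and Hdac8 at 0.47 ± 0.10 (0.034). In that fit 2533 of the 13625 genes tested passed, against 515 with every library. Hdac1 also passed without DMSO replicate 3 alone (0.54, adjusted p = 0.038) or TSA replicate 3 alone (0.55, 0.045).

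Hdac11 measured 9.26, 11.4 and 5.56 FPKM in DMSO and 13.8, 13.6 and 9.74 in TSA. It was higher in TSA in each of the 3 pairs of equal replicate number, by 0.53, 0.24 and 0.71 on the log2 scale, but the groups overlapped and the fold change of 0.49 ± 0.26 (SE) had an adjusted p of 0.35. Hdac2 measured 76.9, 71.6 and 63.3 FPKM in DMSO and 77.4, 71.5 and 58.9 in TSA, with a log2 interval of -0.35 to 0.28, and Hdac3 measured 25.9, 27.0 and 26.6 against 26.6, 24.3 and 18.8, with an interval of -0.52 to 0.13. The low value of Hdac3 in TSA replicate 3 set its mean. Hdac10 measured 4.77, 5.10 and 5.49 against 6.52, 5.52 and 5.04 FPKM, with an interval of -0.19 to 0.44. Hdac6 was listed at 0 in 5 libraries and at 0.00953 FPKM in DMSO replicate 2, an estimated 1 read, and was not tested. The gene is widely expressed in mammals, and an exact 0 in a file without counts can be a failed estimate, so these values are no measure of its absence.

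**Figure D5:**
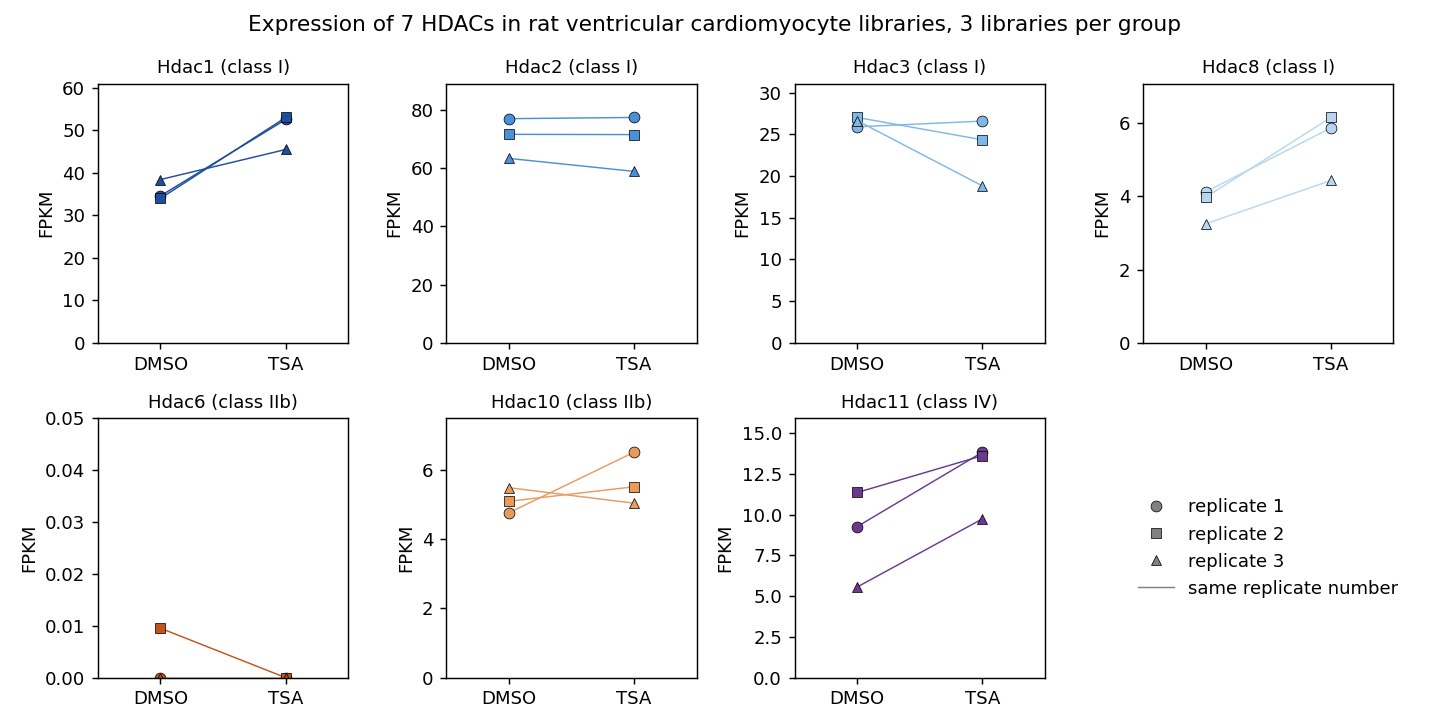
Level of each HDAC in FPKM (vertical axes, each from 0) in the DMSO and TSA libraries of rat ventricular cardiomyocytes; lines join libraries of the same replicate number (circle, 1; square, 2; triangle, 3). Hdac1 and Hdac8 are higher in all 3 TSA libraries than in any DMSO library, without passing the adjusted test, and the Hdac6 axis ends at 0.05 because the gene is listed at or near 0.

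The ratio of Hdac1 to Hdac2, again chosen after the values were seen, was 0.450, 0.475 and 0.607 in DMSO and 0.679, 0.742 and 0.773 in TSA, so Hdac2 led in all 6 rat libraries. In the rat, Hdac1l, a near copy of Hdac1 that could take some of its reads, was listed at 0.973 to 2.29 FPKM. Of the class IIa genes, Hdac7 measured 24.3, 25.1 and 23.4 FPKM in DMSO and 17.9, 17.8 and 15.5 in TSA, lower in every TSA library (-0.48 ± 0.10 SE, adjusted p = 0.051), while Hdac4, Hdac5 and Hdac9 had adjusted p from 0.52 to 0.99. Among the partner and opposing lists, 0 of 13 SIN3, 7 CoREST, 5 NCoR complex, 3 MiDAC, 9 acetyltransferase and 2 BET genes tested passed by limma. Of 10 NuRD genes Chd3, a remodelling ATPase, was lower in TSA (9.45 against 16.7 FPKM, -0.78 ± 0.16, adjusted p = 0.047), and of 6 sirtuins Sirt3 was higher (16.3 against 8.70, 0.84 ± 0.13, 0.023). Of the 2 matched genes known to be induced by HDAC inhibitors, Gsn, which severs actin filaments, was higher in TSA (158 against 103.1 FPKM, 0.61 ± 0.11, adjusted p = 0.032), and the cell cycle inhibitor Cdkn1a measured 87.5 against 65.9 (0.40 ± 0.09, adjusted p = 0.065).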

How the data were processed

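The RNA-seq files were transcript assemblies. Per the labels and file headers the authors aligned reads with HISAT2 2.1.0 to mm10 or rn6 and ran StringTie, and each transcript line held the deposited coverage, FPKM and TPM, with no counts. The ATAC-seq files were one MACS2 peak list per library, in which the authors deposited a score, a fold enrichment (ratio over local background) and −log10 p and −log10 q values. Gene FPKM was the sum over transcript lines. Genes with at least 1 FPKM in 2 mouse or 3 rat libraries were tested (13979 and 13625) on log2(FPKM + 1), so that fold changes of low genes are understated, with limma 3.58.1 in R 4.3.3 and Benjamini-Hochberg adjustment over all genes tested; the study's own count-based test needs counts. Because read counts were not in the files, reads were estimated from coverage, transcript length and a read length of 150 bases.

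The 4 mouse time points shared 1 fit and 1 estimate of the spread, and comparisons against E18.5 shared its libraries. The study describes its replicates as biological; which animals or cultures each library came from was not given in the sources used here, and p-values measure the spread between these libraries. In the rat, libraries of equal replicate number deviated together from their group means (correlations of 0.22, 0.19 and 0.35), which was taken as pairing and tested as an alternative. Unequal pairs of replicates 1 and 2 also correlated (0.17 and 0.090), and replicate 3 ran against both (-0.27 to -0.20). On simulated data with 100 genes changed by a log2 fold of 1 and 100 by 2, the fit recovered 81% and 100% for P7 against E18.5 (13979 genes, 18 false calls) and 83% and 98% for TSA against DMSO (13625 genes, 15 false calls). The changed genes were drawn from those with a mean log2(FPKM + 1) over 2, with independent noise per library, so the rates do not cover lower genes. Far fewer genes were changed than passed in the data for P7 against E18.5 (7711), and the adjustment depends on that number, so the rates may not carry over. A peak counted as a promoter peak within 2.5 kb of any annotated start; equal-length lists, the upper 0.5 of each list, a 1 kb window, peak midpoints and RefSeq starts were alternatives. For RNA they were a pseudocount of 0.1, no filter, a mean of at least 5 FPKM, TPM, size factors, limma-voom, the replicate block, pairwise fits and leaving out each library. The genes and lists were chosen with earlier results of these data known. All 7 genes were described in every library, and each list contributed at most the 2 genes that rose most and the 2 that fell most among those that passed, except for items that are not reported here. The 6 HiChIP samples were not analysed here.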

Additional observations from a re-analysis of the deposited data

How the results depend on the processing

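Of 737 values of the members' fold changes under alternatives, 673 kept their direction and side of the threshold. The rise of Hdac1 and of Hdac8 and the fall of Hdac11 against E18.5 did so under every alternative that could test them; a mean of at least 5 FPKM left Hdac8, Hdac10 and Hdac11 untested. Of 37 calls lost, 20 were of Hdac3, 10 of Hdac6 and 7 of Hdac11, the last all for P7 against P1. The count of HDACs that passed at P1 against E18.5 was 3 without an expression filter, 3 with a mean of at least 5 FPKM, 3 with only the 2 time points in the fit and 3 to 4 with a library left out. With a mean of at least 5 FPKM it was also 3 at P3 and at P7. For P7 against P1 it was 0 under those 3 settings and 0 to 1 with a library left out, and for TSA it was 0 to 1 with a library left out and 2 without both replicates 3, an alternative chosen after seeing the data. Promoter peaks in both libraries numbered 4 at P3 and 3 at P7 with lists of equal length (37.2% and 45.2% of all genes), and 3 at E18.5 in the upper 0.5 of each list (32.9%).

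Values near 0 changed sign. Size factors gave Hdac2 -0.19, -0.18 and -0.070 at P1, P3 and P7 and Hdac10 -0.015 at P7, limma-voom gave Hdac2 -0.0023 at P1 and Hdac3 0.037 for P7 against P3, and Hdac2 under TSA was 0.0030 without both replicates 3. With a library left out, Hdac2 ranged from -0.0027 to 0.022 at P1, from -0.011 to 0.076 at P3, from -0.020 to 0.067 for P3 against P1 and from -0.12 to 0.078 under TSA. Hdac10 ranged from -0.090 to 0.35 at P7, from -0.42 to 0.033 for P3 against P1 and from -0.38 to 0.076 for P7 against P3. Hdac3 ranged from -0.0097 to 0.16 for P3 against P1, from -0.049 to 0.11 for P7 against P1 and from -0.13 to 0.043 for P7 against P3, Hdac6 from -0.20 to 0.016 for P3 against P1, and Hdac8 from -0.13 to 0.051 for P7 against P3. The cause of these changes of sign was not tested.

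Over all genes, 515 passed for TSA, 137 with a mean of at least 5 FPKM and 33 to 880 with a library left out (880 without DMSO replicate 3, and 66, 97, 61 and 33 without replicates 1 and 2 of DMSO and of TSA). For P7 against P3 717 passed, 24 without a filter and 23 to 822 with a library left out (23 and 26 without P3 replicate 1 or 2, and 106 without P7 replicate 2). For P7 against P1 2546 passed, 1622 without a filter and 1000 to 2821 with a library left out (1360 without P1 replicate 2, and 1663 and 1000 without P7 replicate 1 or 2), and for P3 against P1 the count was 0 to 36 against 2. The replicate block changed no call of an HDAC, with 5, 5, 5, 0, 1 and 0 passing in the mouse comparisons and 0 in the rat. It moved the rat count to 629 genes. In the mouse, the correlations for equal numbers had both signs, from -0.096 to 0.17. An estimated 101 reads in replicate 1, for Hdac8 at E18.5 and for Hdac11 at P7, limit those levels.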

Other observations

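Further peaks were listed in or next to several HDAC genes, away from their main promoter. At or just past the downstream end of Hdac10 a peak was listed in both P3 and both P7 libraries and in no E18.5 or P1 library, at chr15:89122768-89123273 in P7 replicate 1 (mm10), with -log10 q of 15.8 and 8.10 at P3 and 7.52 and 6.21 at P7. Starts of other genes were searched for only within 2.5 kb of an Hdac10 start, not around this end, so the peak cannot be assigned to Hdac10. Inside Hdac11 a peak near an internal start, at chr6:91165327-91165486 in P3 replicate 1, was listed in both P3 libraries and in P7 replicate 1 (5.85, 3.496 and 4.46). A further one near the end of Hdac11, at chr6:91173480-91173932 in P3 replicate 1, was listed in that library and in P7 replicate 1 (19.6 and 5.64). Over 2.5 kb from any annotated start, the body of Hdac8 held 4 and 2 peaks in the P3 libraries and 1 in P7 replicate 1. All of these were in the longer lists, and none was tested between ages.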
